A study of Mus musculus with 3 samples.

Results

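The 6 genes described here encode the receptors for the colony-stimulating factors and interleukin-3. They are Csf1r, Csf3r, Csf2ra, Csf2rb, Csf2rb2 and Il3ra, chosen by name as the receptors of these cytokines, and they are 6 of the 28692 gene IDs in the count table. They were measured in wild-type C57BL/6 mouse bone marrow progenitors that the labels call Modified GMP, enriched for CD117 and sorted by flow cytometry. A female and a male mRNA library were made with CITE-seq, which counts transcripts and antibody tags in the same cells. The labels state neither age nor the number of mice behind each library, so n = 2 below means 2 libraries, and sex and library cannot be told apart. No treatment or mutant was compared: the comparisons are between cell clusters that the authors named, within each library.

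Granulocyte colony-stimulating factor acts through Csf3r, and macrophage colony-stimulating factor and interleukin-34 act through Csf1r, a receptor tyrosine kinase. Csf2ra and Il3ra are the ligand-binding alpha chains for granulocyte-macrophage colony-stimulating factor and for interleukin-3. Csf2rb is the common beta chain that both use to signal, and mice also have Csf2rb2, a closely related beta chain that serves interleukin-3. In marrow, Csf3r is known for its part in neutrophil production and Csf1r for its part in the monocyte and macrophage lineage. The alpha and beta chains are known from a broader range of myeloid cells.

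The female library held 4336 cells and 91448433 unique molecular identifiers (UMIs, one per captured transcript), and the male library 6796 cells and 124967351 UMIs. Paired values are those of the female library and then of the male library. Cells carried the authors' names for 17 clusters. Early clusters were HSCP-1, HSCP-2 and Multi-Lin, granulocytic ones Gran-1 and Gran-2 (called Gran together), later granulocytic ones Myelo-1 to Myelo-4 (Myelo), and monocytic ones MDP, cMoP and Mono. MP, IG2, Meg, Eryth and DC were kept apart. These groupings follow the names alone, and the clusters were made by the authors from RNA of the same cells. Monocyte and neutrophil markers went with the names. A list of 8 monocyte markers summed to between 1446 and 2596 CPM (UMIs per 1000000 UMIs of the cluster) in the monocytic clusters, against 104 to 163 CPM in Gran-1 and Gran-2. That list was highest in the few DC cells (2780 and 3497 CPM). A list of 10 neutrophil markers summed to 36934 to 51913 CPM in Gran-1 and Gran-2, against 13595 to 22494 CPM in the monocytic clusters. A list of 7 macrophage markers went the other way. It summed to 33.4 and 27.3 CPM in Gran-1 and 129 and 101 CPM in Gran-2, against 6.89 to 14.3 CPM in the monocytic clusters. Its part in the Csf1r counts was not tested. HSCP-1 (14 female and 10 male cells), DC (11 and 22) and Myelo-4 (31 and 28) are too small for firm levels. In HSCP-1 a list of 6 lymphoid markers summed to 838 and 768 CPM, and its male cells had 2787 CPM of a list of 7 dendritic markers, against 271 CPM in its female cells. Of the cell barcodes, 45 occurred in both libraries.

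Promoters are shown for Csf3r and Csf2ra, both of which were higher in Gran than in early cells, and for Il3ra and Csf2rb2, which were lower. Each runs from 250 bases before to 50 bases after the RefSeq transcription start (build GRCm38.p6) and is written 5′ to 3′ on the gene's strand. Capitals mark a pair of motifs that were searched on both strands, so a motif on the opposite strand is shown as its reverse complement. One is GAGGAA, a core of sites bound by the myeloid factor PU.1. The other is ATTGCG, which is a half-site of the C/EBP factors. The Csf3r promoter lies at chr4:126024409-126024708 on the plus strand, that of Csf2ra at chr19:61228369-61228668 on the minus strand, that of Il3ra at chr14:14346245-14346544 on the plus strand, and that of Csf2rb2 at chr15:78305672-78305971 on the minus strand.
Csf3r: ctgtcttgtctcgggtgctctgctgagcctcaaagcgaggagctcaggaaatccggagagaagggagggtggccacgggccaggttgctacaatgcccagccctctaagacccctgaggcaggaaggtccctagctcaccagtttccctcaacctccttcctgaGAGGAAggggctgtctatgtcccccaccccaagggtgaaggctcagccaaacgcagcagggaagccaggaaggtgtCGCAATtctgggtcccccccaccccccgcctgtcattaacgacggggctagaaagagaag
Csf2ra: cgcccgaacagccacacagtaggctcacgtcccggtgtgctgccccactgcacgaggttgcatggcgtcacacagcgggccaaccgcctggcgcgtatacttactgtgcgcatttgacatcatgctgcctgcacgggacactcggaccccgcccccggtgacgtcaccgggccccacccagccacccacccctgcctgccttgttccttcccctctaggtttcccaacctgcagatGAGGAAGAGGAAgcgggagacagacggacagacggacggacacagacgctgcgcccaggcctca
Il3ra: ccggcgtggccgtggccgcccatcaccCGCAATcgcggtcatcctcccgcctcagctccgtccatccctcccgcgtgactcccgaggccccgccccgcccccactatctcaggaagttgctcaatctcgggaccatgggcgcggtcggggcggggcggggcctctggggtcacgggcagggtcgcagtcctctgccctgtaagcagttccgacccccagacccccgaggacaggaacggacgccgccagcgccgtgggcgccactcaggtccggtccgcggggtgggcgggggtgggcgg
Csf2rb2: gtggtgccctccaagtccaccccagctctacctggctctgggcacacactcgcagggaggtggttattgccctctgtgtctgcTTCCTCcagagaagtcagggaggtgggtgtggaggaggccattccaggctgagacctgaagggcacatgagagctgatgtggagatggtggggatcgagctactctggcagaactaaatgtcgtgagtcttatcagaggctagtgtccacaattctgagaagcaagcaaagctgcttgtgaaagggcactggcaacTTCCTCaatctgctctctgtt
Csf3r held the PU.1 core at 86 bases before the start and the C/EBP half-site, on the opposite strand, at 10 bases before it. Csf2ra held the PU.1 core in 2 adjoining copies, at 14 and 8 bases before the start, and no half-site. Il3ra held a half-site on the opposite strand at 223 bases before the start and no PU.1 core. Csf2rb2 held the PU.1 core on the opposite strand 167 bases before the start and again 30 bases after it, and no half-site, so the core was found in genes that were higher and in one that was lower. The motifs do not overlap each other. The PU.1 core occurred in 28.3% and the half-site in 2.68% of 32851 mouse promoters of this length, so a match describes the letters and no binding. The promoters of Csf1r and Csf2rb are only named here. The annotation of that build places Csf2rb on chromosome 15 (78325800 to 78351001) and Csf2rb2 beside it (78282507 to 78305721). The pair lie 20078 bases apart and are closely related, though their sequences were not compared here. How reads that match both were counted was not checked, so their separate counts are uncertain.

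Csf1r was highest in the monocytic clusters and lay progressively lower in MP, in IG2 and in the granulocytic ones. It reached 98.9 CPM in the female and 69.7 CPM in the male library in cMoP (mean 84.3 ± 20.7, SD, n = 2). Mono had 53.7 and 46.9 CPM and MDP 51.7 and 47.8 CPM, and these neighbours overlapped. MP followed with 29.4 and 26.4 CPM and IG2 with 15.4 and 11.3 CPM, each above the next without overlap apart from the few DC cells (0 and 16.6 CPM). Multi-Lin had 8.25 and 6.52 CPM, Gran-1 5.48 and 5.30 CPM, Gran-2 3.82 and 2.69 CPM, and Myelo-1 to Myelo-3 between 1.30 and 4.54 CPM. Levels were also low in HSCP-2 (0.853 and 1.26 CPM) and Meg (0.698 and 1.69 CPM), on 1 to 3 UMIs a library. Eryth held 0 and 1 UMIs, and a count of 0 in its female library allows up to 5.17 CPM. No Csf1r UMI was found in HSCP-1 or Myelo-4 in either library, which allows up to 23.9 and 26.8 CPM in HSCP-1 and 15.7 and 19.2 CPM in Myelo-4, so their low level is not firm.

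Csf3r was spread more evenly, at a substantial level in every cluster other than Meg, Eryth and DC. Gran-2 had 62.1 CPM in the female and 62.8 CPM in the male library (mean 62.5 ± 0.485, SD, n = 2). Myelo-1 came next with 57.0 and 54.2 CPM. The 2 small clusters HSCP-1 (55.9 and 53.6 CPM from 7 and 6 UMIs) and Myelo-4 (62.7 and 38.5 CPM from 12 and 6 UMIs) lay in the same range with wide counting error. Gran-1 had 38.8 and 41.5 CPM, Myelo-2 39.3 and 36.3 CPM and Myelo-3 32.9 and 36.0 CPM. Multi-Lin had 30.2 and 30.9 CPM. Below it IG2, HSCP-2, MP, cMoP, Mono and MDP followed with overlapping libraries and means between 22.4 and 26.5 CPM. Meg (3.49 and 5.08 CPM) and Eryth (5.17 and 3.92 CPM) were far lower, each on 6 UMIs or fewer a library.

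Csf2ra, the alpha chain for granulocyte-macrophage colony-stimulating factor, had its highest means in cMoP, Gran-2 and Myelo-1. It had 96.5 and 132 CPM in cMoP, 97.2 and 98.4 CPM in Gran-2, and 106 and 89.0 CPM in Myelo-1, which overlapped. Mono had 63.8 and 69.7 CPM and Gran-1 56.6 and 58.7 CPM. Myelo-3 was below Gran-1, at 55.7 and 55.5 CPM, and the few DC cells had 67.3 and 99.8 CPM. MP (40.4 and 40.7 CPM) and IG2 (35.0 and 32.7 CPM) lay between these and the early clusters. Multi-Lin had 27.5 and 29.2 CPM, and MDP, HSCP-2, Meg and Eryth overlapped with it.

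Il3ra, the alpha chain for interleukin-3, was lower in Gran-1 and Gran-2 than in Multi-Lin, where Csf2ra was higher in Gran-1 and Gran-2. It had 57.2 and 50.5 CPM in Multi-Lin, 30.4 and 23.6 CPM in Gran-1, 27.0 and 19.5 CPM in Gran-2, 25.0 and 21.0 CPM in Myelo-1, and 12.9 and 14.4 CPM in Myelo-3. On the monocytic side it stayed high, with 75.1 and 53.7 CPM in cMoP, 51.0 and 42.6 CPM in Mono and 49.2 and 39.8 CPM in MDP.

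Csf2rb, the common beta chain, was lowest among the myeloid clusters in Gran-1 (15.2 and 13.7 CPM) and Gran-2 (17.6 and 15.8 CPM). It had 33.3 and 28.4 CPM in Multi-Lin, 39.3 and 31.4 CPM in cMoP, 25.3 and 26.7 CPM in Mono, and 28.4 and 26.4 CPM in Myelo-2. Meg and Eryth held 6 Csf2rb UMIs or fewer a library. Csf2rb2 was scarce throughout, with 121 UMIs in the whole female and 134 in the whole male library. It had 2.53 and 2.65 CPM in Multi-Lin, against 0.382 and 0.200 CPM in Gran-1, and 2.35 and 1.93 CPM in Myelo-3.

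**Figure D1:**
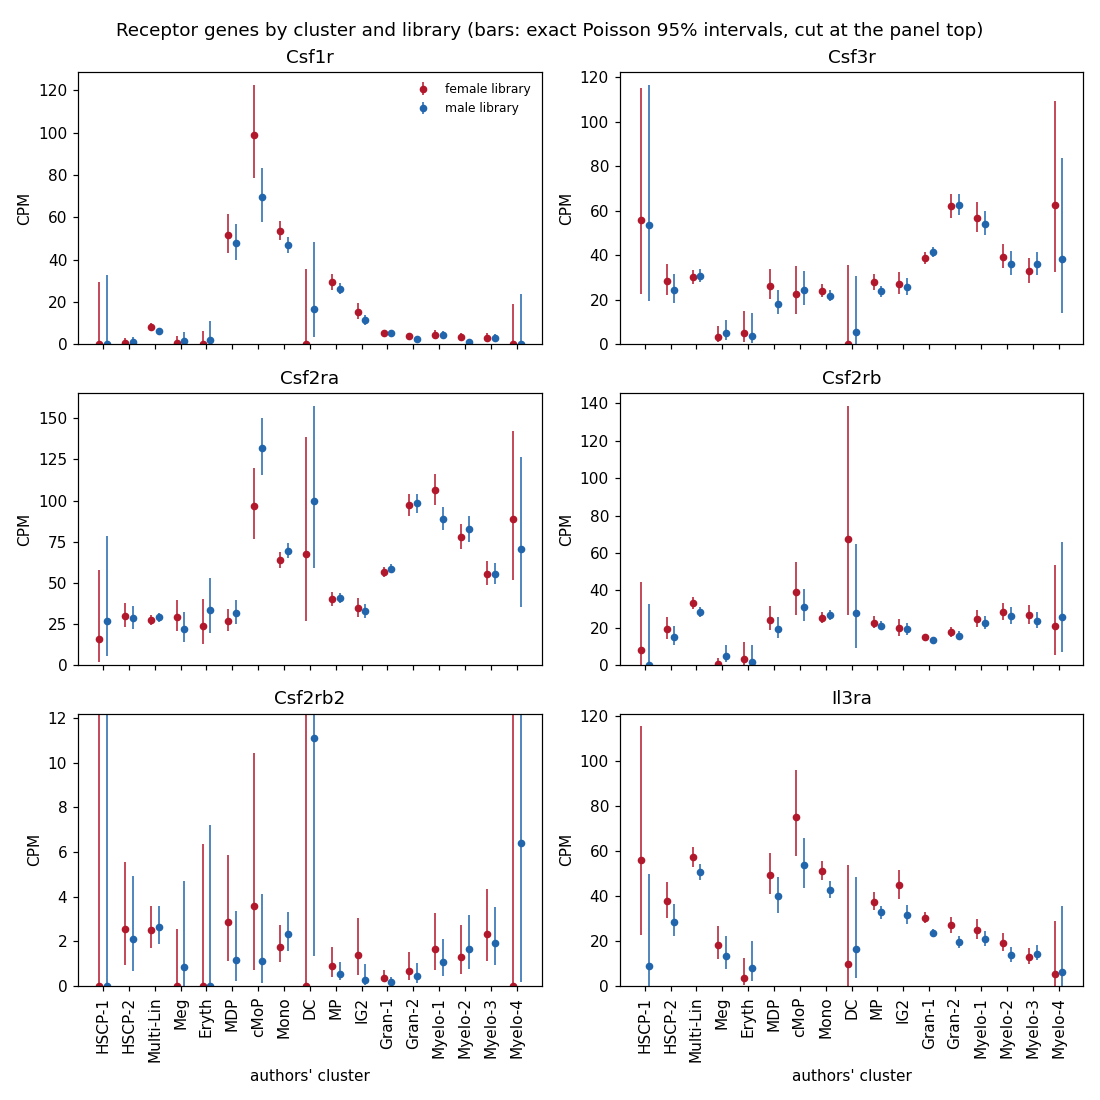
CPM of each receptor gene (y axis, linear, from 0) in the authors' 17 clusters (x axis), with 1 point per library and exact Poisson 95% intervals that cover counting error only, cut at the panel top in clusters with few UMIs. Csf1r peaks in cMoP at 98.9 and 69.7 CPM, whereas Csf3r is highest in Gran-2 at 62.1 and 62.8 CPM among the larger clusters and is between 18.4 and 26.4 CPM in the monocytic ones.

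The ratio of Csf1r to Csf3r UMIs set MP and IG2 apart between the branches. Because both counts come from the same cells and library, depth and scaling cancel in it, although its absolute value depends on how well each transcript's 3′ end is captured. The log2 ratio was 1.20 ± 0.004 in the monocytic clusters together, 0.10 ± 0.05 in MP, -1.01 ± 0.26 in IG2, -2.06 ± 0.26 in Multi-Lin and -3.25 ± 0.12 in Gran (SD, n = 2). In MP that was 262 Csf1r against 250 Csf3r UMIs in the female and 426 against 386 in the male library. IG2 held 66 against 117 and 83 against 189 UMIs. Libraries of monocytic, MP, IG2, Multi-Lin and Gran cells did not overlap in this order. Within the monocytic clusters, cMoP had the highest ratio (1.82 ± 0.44), with Mono (1.13 ± 0.04) and MDP (1.17 ± 0.29) overlapping below it. Among granulocytic clusters the ratio was -2.90 ± 0.10 in Gran-1, -4.28 ± 0.37 in Gran-2 and -3.62 ± 0.04 in Myelo-1. HSCP-2 held 2 and 3 Csf1r UMIs, against 67 and 58 of Csf3r.

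**Figure D2:**
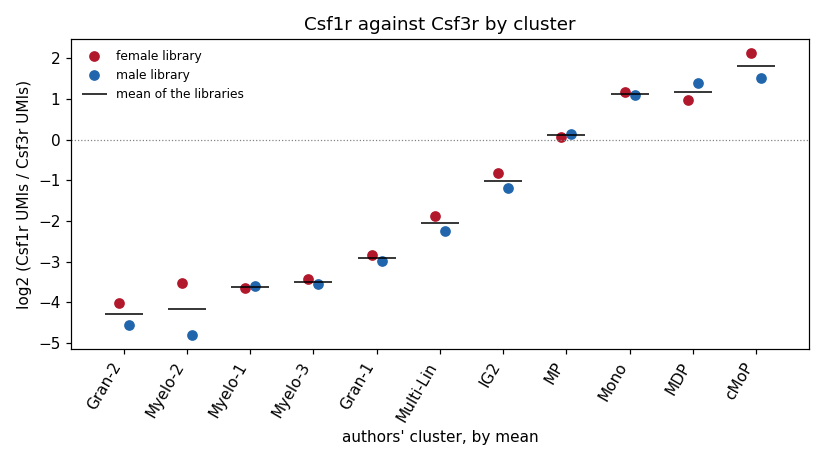
Log2 of Csf1r UMIs over Csf3r UMIs (y axis) by cluster (x axis, ordered by mean), with 1 point per library and a bar for the mean, for clusters with over 3 Csf1r UMIs in each library. MP sits near 0 at 0.10 ± 0.05, between IG2 at -1.01 ± 0.26 and the monocytic clusters, whose means run from 1.13 to 1.82.

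Classes of clusters were then compared on UMI sums per library with edgeR's quasi-likelihood test, scaled by the trimmed mean of M-values (TMM), with Benjamini-Hochberg adjustment over all genes tested. Fold changes below are from this fit, and CPM values are unscaled. TMM scaling moved log2 fold changes, relative to scaling by total UMIs, by 0.29 for Gran over early, 0.20 for monocytic over early, 0.06 for Gran over monocytic and 0.50 for Myelo over Gran. All changes are therefore relative to the bulk of genes in those clusters.

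In Gran over early cells, Csf3r and Csf2ra rose, Csf2rb, Csf2rb2 and Il3ra fell, and Csf1r did not pass the test. Csf3r had 45.1 and 46.8 CPM in Gran, against 30.2 and 30.2 CPM in early cells (log2 fold change 0.90, SE 0.05, adjusted p = 4.69e-10). Csf2ra had 67.5 and 68.5 CPM in Gran, against 27.8 and 29.1 CPM in early cells (1.54, SE 0.05, adjusted p = 4.71e-13). Both differences far exceeded the spread between libraries. Csf2rb had 15.8 and 14.2 CPM in Gran, against 30.9 and 26.5 CPM in early cells (-0.64, SE 0.07, adjusted p = 8.87e-07). Il3ra had 29.5 and 22.6 CPM in Gran, against 54.0 and 47.4 CPM in early cells (-0.69, SE 0.06, adjusted p = 3.25e-08). Csf2rb2 rested on 15 and 12 UMIs in Gran, against 37 and 46 in early cells (-2.57, SE 0.30, adjusted p = 2.30e-06). Csf1r had 5.03 and 4.65 CPM in Gran, against 7.0 and 5.78 CPM in early cells (-0.10, SE 0.13, adjusted p = 0.50). It passed when scaled by total UMIs (-0.39, adjusted p = 0.0184) and with Gran-2 alone (-0.64, adjusted p = 0.00540). A fit over all single clusters, whose early mean weighs the 24 cells of HSCP-1 as heavily as Multi-Lin, called neither Csf2rb (0.67, adjusted p = 0.175), Csf2rb2 (-0.0087, adjusted p = 0.976) nor Il3ra (-0.23, adjusted p = 0.354) and gave Csf1r as higher (3.22, adjusted p = 0.0267). Of 12051 genes tested here 66.7% passed, 32.5% higher and 34.2% lower, so 5 of 6 members passing is little above the background. The higher share among calls was 48.7% with TMM and 22.3% with total UMIs.

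In monocytic over early cells, Csf1r and Csf2ra rose, Csf3r fell slightly, and the beta chains and Il3ra did not pass. Csf1r had 56.0 and 49.4 CPM in monocytic cells, against 7.0 and 5.78 CPM in early cells (log2 fold change 3.25, SE 0.09, adjusted p = 4.04e-26), a 9.50-fold difference. Csf2ra had 59.5 and 70.3 CPM in monocytic cells, against 27.8 and 29.1 CPM in early cells (1.40, SE 0.06, adjusted p = 8.62e-20). Csf3r had 24.4 and 21.6 CPM in monocytic cells, against 30.2 and 30.2 CPM in early cells (-0.20, SE 0.08, adjusted p = 0.0313). That small call was lost with DESeq2 (adjusted p = 0.589), without the library term (0.135), without the 5% of cells highest in UMIs (0.145) and in the fit over all clusters (0.157). Il3ra had 52.1 and 43.3 CPM in monocytic cells, against 54.0 and 47.4 CPM in early cells (0.11, SE 0.06, adjusted p = 0.0999). The fit over all clusters gave Csf1r 6.91, and called Csf2rb (1.35, adjusted p = 0.000385) and Il3ra (0.68, adjusted p = 0.000356). Of 11599 genes, 59.4% passed, 28.9% higher and 30.5% lower, against 3 of 6 members. The higher share among calls was 48.6% with TMM and 26.2% with total UMIs.

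Set directly against each other, Gran cells had far less Csf1r and more Csf3r than monocytic cells. Csf1r had 5.03 and 4.65 CPM in Gran, against 56.0 and 49.4 CPM in monocytic cells (log2 fold change -3.38, SE 0.08, adjusted p = 4.57e-33), a 10.4-fold difference. Csf3r had 45.1 and 46.8 CPM in Gran, against 24.4 and 21.6 CPM in monocytic cells (1.06, SE 0.06, adjusted p = 7.16e-19), a 2.09-fold difference. Il3ra (-0.82, SE 0.06), Csf2rb (-0.74, SE 0.08) and Csf2rb2 (-2.47, SE 0.33) were lower in Gran, with adjusted p from 2.35e-16 to 1.79e-08. Csf2ra passed at 0.12 (SE 0.04, adjusted p = 0.0223) although its libraries overlapped, and the call was lost with DESeq2 (adjusted p = 0.357), with total UMIs (0.306), without the library term (0.342) and after thinning cells to 5000 UMIs (0.225). With Gran-2 alone it was 0.72. Of 11602 genes, 51.0% passed, 25.7% higher and 25.4% lower, and the higher share among calls was 50.3% with TMM and 40.2% with total UMIs.

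In Myelo over Gran cells, the beta chains rose most. Csf2rb had 26.6 and 24.2 CPM in Myelo, against 15.8 and 14.2 CPM in Gran (log2 fold change 1.25, SE 0.09, adjusted p = 1.03e-25). Csf2rb2 rested on 25 and 28 UMIs in Myelo, against 15 and 12 in Gran (2.70, SE 0.40, adjusted p = 4.21e-09). Csf2ra had 81.1 and 77.4 CPM in Myelo, against 67.5 and 68.5 CPM in Gran (0.71, SE 0.07, adjusted p = 1.51e-15), or 0.22 when scaled by total UMIs. Csf3r had 43.6 and 43.7 CPM in Myelo, against 45.1 and 46.8 CPM in Gran: its log2 fold change was 0.42 (SE 0.07, adjusted p = 5.30e-07) with TMM and -0.074 (adjusted p = 0.335) with total UMIs, so its direction depends on the scaling. Csf1r (-0.033) and Il3ra (-0.023) did not pass with TMM and were lower with total UMIs (-0.52 each, adjusted p = 0.0241 and 0.000351). Of 11473 genes 66.0% passed, 33.5% higher and 32.5% lower. The higher share among calls was 50.8% with TMM and 21.8% with total UMIs. The summed neutrophil markers reached 70853 to 129670 CPM in the Myelo clusters, and their part in these values was not tested.

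**Figure D3:**
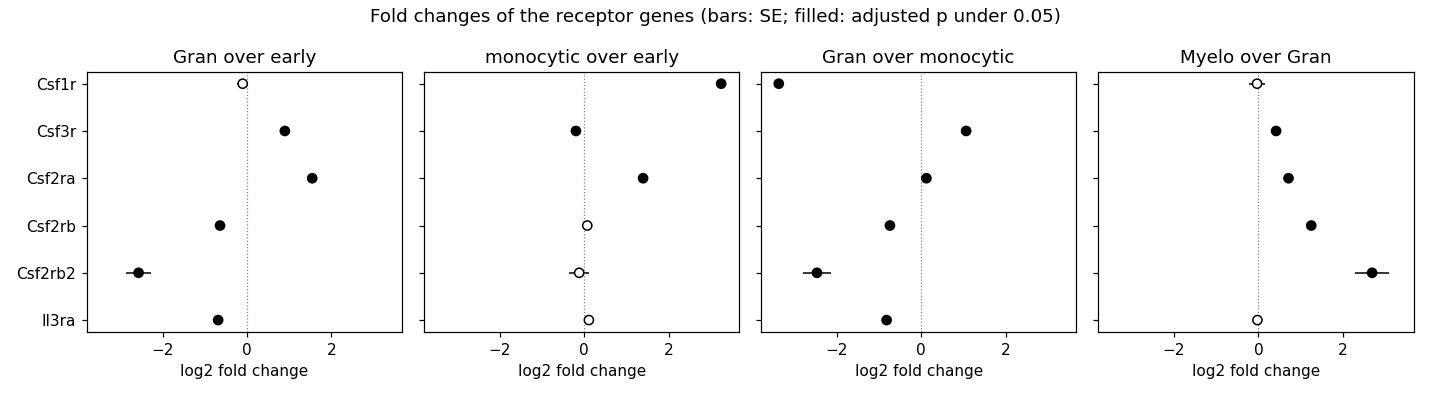
Log2 fold change (x axis) of each receptor gene (y axis) in the 4 class comparisons, from edgeR with TMM scaling. Bars are SE and filled points passed an adjusted p of 0.05. Csf1r lies at 3.25 in monocytic over early and -3.38 in Gran over monocytic, the Csf3r point in Myelo over Gran (0.42) turns to -0.074 with total UMIs, and the other filled points keep their sign with that scaling.

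Among the monocytic clusters, Csf1r was higher in MDP than in Multi-Lin, and 4 members were higher in cMoP than in MDP. Single clusters were compared in 1 fit over all cluster sums, and no order among them was tested. Csf1r was the 1 member of 6 that passed in MDP over Multi-Lin, with 127 and 125 UMIs (51.7 and 47.8 CPM) in MDP, against 8.25 and 6.52 CPM in Multi-Lin (log2 fold change 2.87, SE 0.15, adjusted p = 5.36e-22). Csf3r (-0.34, adjusted p = 0.0953) and Csf2rb (-0.38, adjusted p = 0.0749) missed the threshold and passed with total UMIs (-0.46 and -0.49, adjusted p = 0.0180 and 0.0127). Without the basophil-like cells of Multi-Lin, described below, Csf3r also passed (-0.42, adjusted p = 0.0325). In cMoP over MDP, 4 members rose: Csf2ra (2.06, SE 0.16), Csf1r (0.74, SE 0.15), Csf2rb (0.69, SE 0.22) and Il3ra (0.54, SE 0.16). Csf2ra, at 96.5 and 132 CPM in cMoP, against 26.9 and 31.8 CPM in MDP, had the largest of these differences (adjusted p = 2.82e-15). The calls of Csf2rb (adjusted p = 0.0277) and Il3ra (0.0163) were lost without the library term (0.0562 and 0.160), and those of Csf1r and Il3ra after thinning (0.123 and 0.328). In Mono over cMoP, Csf1r (-0.64, SE 0.13, adjusted p = 0.000464) and Csf2ra (-0.78, SE 0.12, adjusted p = 1.95e-06) were lower. Whether Mono comes after cMoP was not tested. The monocyte list summed to 2596 and 2274 CPM in cMoP, against 1598 and 1637 CPM in Mono. A list of 8 multipotent markers summed to 166 and 113 CPM in cMoP, against 203 and 179 CPM in Mono. Over all genes, 19.3% passed in MDP over Multi-Lin (10.4% higher, 8.94% lower), 11% in cMoP over MDP (6.86% higher, 4.15% lower) and 4.63% in Mono over cMoP (1.87% higher, 2.76% lower). Of these calls 53.7%, 62.3% and 40.3% were higher with TMM, and 32.0%, 57.2% and 22.8% with total UMIs. cMoP held 39 female and 97 male cells, and its female library had less Csf2ra and more Csf1r in CPM than its male one.

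Along the granulocytic branch Csf3r and Csf2ra rose at both steps. In Gran-1 over Multi-Lin, Csf3r had 38.8 and 41.5 CPM in Gran-1, against 30.2 and 30.9 CPM in Multi-Lin (log2 fold change 0.62, SE 0.07, adjusted p = 1.38e-10), and Csf2ra rose by 1.25 (SE 0.08). Il3ra (-0.78, SE 0.07), Csf2rb (-0.87, SE 0.09) and Csf2rb2 (-2.92, SE 0.38) fell. Csf1r did not pass (-0.21, SE 0.14, adjusted p = 0.216), though it did with total UMIs (-0.43, adjusted p = 0.00833). In Gran-2 over Gran-1, Csf3r had 62.1 and 62.8 CPM in Gran-2, against 38.8 and 41.5 CPM in Gran-1 (0.73, SE 0.07, adjusted p = 6.18e-13), Csf2ra rose by 0.86 (SE 0.07), and Csf1r fell by 0.66 (SE 0.20, adjusted p = 0.00871). The Csf1r call was lost without the library term (adjusted p = 0.0528) and after thinning (0.173). Csf2rb was slightly higher in Gran-2 (0.31, SE 0.11, adjusted p = 0.0234), a call lost with DESeq2 (0.0992), with total UMIs (0.126), without the library term (0.171) and after thinning (0.286). No member passed in Myelo-4 over Gran-2, where Myelo-4 held at most 17 UMIs of any member in a library. Over all genes, 54.8% passed in Gran-1 over Multi-Lin (26.5% higher, 28.3% lower), 27.8% in Gran-2 over Gran-1 (15.5% higher, 12.3% lower) and 22.0% in Myelo-4 over Gran-2 (7.05% higher, 15% lower). Of these calls, 48.4%, 55.7% and 32.0% were higher with TMM, and 22.0%, 33.9% and 20.7% with total UMIs.

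MP and IG2 had more Csf1r than Multi-Lin and Gran cells and less than monocytic cells, while their Csf3r did not pass the test against Multi-Lin. In MP over Multi-Lin, Csf1r had 29.4 and 26.4 CPM in MP, against 8.25 and 6.52 CPM in Multi-Lin (log2 fold change 2.12, SE 0.12, adjusted p = 1.16e-21). Csf3r had 28.0 and 23.9 CPM in MP, against 30.2 and 30.9 CPM in Multi-Lin (-0.064, SE 0.09, adjusted p = 0.579), and -0.26 (adjusted p = 0.0108) with total UMIs. In IG2 over Multi-Lin, Csf1r had 15.4 and 11.3 CPM in IG2, against 8.25 and 6.52 CPM in Multi-Lin (0.96, SE 0.17, adjusted p = 1.13e-05), and Csf3r did not pass (-0.085, SE 0.11, adjusted p = 0.61). Csf2ra rose in both (0.71 in MP, 0.37 in IG2), and Il3ra, Csf2rb and Csf2rb2 fell in both, by 0.42, 0.28 and 1.69 in MP and by 0.40, 0.51 and 1.74 in IG2. Csf2rb2 rested on 8 and 9 UMIs in MP and on 6 and 2 UMIs in IG2, where its log2 change was -0.65 without the male library and -2.84 without the female one. The Csf2ra call in IG2 was lost with total UMIs (adjusted p = 0.0845) and after thinning (0.175), that of Csf2rb in IG2 after thinning (0.237) and that of Il3ra in IG2 without the library term (0.104). The Csf2rb call in MP was lost without the library term (0.104), after thinning (0.0501) and without the basophil-like cells described below (0.135). Over all genes, 46.5% passed in MP over Multi-Lin (23.6% higher, 22.9% lower) and 27.2% in IG2 over Multi-Lin (14.7% higher, 12.5% lower). Of these calls, 50.8% and 53.9% were higher with TMM, and 24.6% and 26.4% with total UMIs.

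Against Gran cells (the mean of Gran-1 and Gran-2), Csf1r was 2.66 (SE 0.11) higher in MP and 1.49 (SE 0.17) higher in IG2 on the log2 scale, with adjusted p of 3.58e-27 and 1.64e-10. Csf3r was lower by almost the same amount in both, at -1.05 (SE 0.07) in MP and -1.07 (SE 0.09) in IG2, with adjusted p of 1.74e-18 and 4.03e-15. Csf2ra was also lower (-0.97 in MP and -1.31 in IG2), and Il3ra higher (0.43 and 0.44), calls lost after thinning (adjusted p = 0.0513 in MP and 0.127 in IG2). Csf2rb was higher in MP over Gran (0.43, SE 0.09, adjusted p = 9.15e-05), a call lost after thinning (0.151). Against monocytic cells (the mean of MDP, cMoP and Mono), Csf1r was lower in MP (-1.03, SE 0.08, adjusted p = 1.48e-14) and in IG2 (-2.20, SE 0.12, adjusted p = 1.25e-21). Csf2ra (-0.57 in MP and -0.91 in IG2) and Il3ra (-0.48 and -0.47) were lower in both too, so 4 members were lower and none higher in each. The others were Csf2rb2 in MP (-1.47, adjusted p = 0.0277), lost without the library term (0.0593) and after thinning (0.764), and Csf2rb in IG2 (-0.48, adjusted p = 0.00292), lost after thinning (0.263) as was Il3ra in IG2 (0.0919). Csf3r did not pass in MP (0.19, SE 0.10, adjusted p = 0.234) or IG2 (0.17, SE 0.12, adjusted p = 0.358). Between the 2 clusters themselves, IG2 over MP, Csf1r had 15.4 and 11.3 CPM in IG2, against 29.4 and 26.4 CPM in MP (-1.17, SE 0.13, adjusted p = 2.12e-09). That call was lost after thinning (-0.90, adjusted p = 0.0685), which leaves fewer counts to test. Csf3r had 27.3 and 25.8 CPM in IG2, against 28.0 and 23.9 CPM in MP (-0.021, SE 0.11, adjusted p = 0.968), and its libraries overlapped. Csf2ra was lower in IG2 (-0.34, SE 0.11, adjusted p = 0.0335), a call lost with DESeq2, total UMIs, thinning, no library term and no highest cells (adjusted p from 0.0591 to 0.718).

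Over all genes, 39.3% passed in MP over Gran (19.6% higher, 19.7% lower) and 37.9% in IG2 over Gran (18.8% higher, 19.1% lower). Against monocytic cells 18.1% passed in MP (9.38% higher, 8.68% lower) and 23.5% in IG2 (12.1% higher, 11.3% lower), and 9.00% passed in IG2 over MP (4.01% higher, 5.0% lower). With TMM 49.8%, 49.7%, 52.0%, 51.7% and 44.5% of these calls were higher, and with total UMIs 63.9%, 71.5%, 40.5%, 57.3% and 66.5%. These comparisons share clusters, so their values are set side by side and are not independent. The summed monocyte markers were 903 and 938 CPM in MP and 428 and 441 CPM in IG2, against 163 and 163 CPM in Gran-1 and 1598 and 1637 CPM in Mono. Their part in the Csf1r values was not tested.

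Shares of cells with a UMI gave the same order for Csf1r. A Csf1r UMI was found in 72.7% of female and 61.8% of male monocytic cells, 51.1% (95% exact interval 45.4% to 56.8%) and 44.1% (40.4% to 48.0%) of MP cells, 33.7% (26.6% to 41.5%) and 22.8% (18.4% to 27.7%) of IG2 cells, and 12.4% and 9.40% of Gran cells. As background, Meg and Eryth, which are not known to use this receptor, showed it in 0% to 2.35% of cells, at median depths of 10904 to 15946.5 UMIs, against 27908 and 23120 UMIs in MP. With every cell thinned to 5000 UMIs (19 female and 118 male shallower cells left out), the shares were 26.0% and 21.4% in monocytic cells, 10.7% and 12.1% in MP, 6.63% and 6.99% in IG2, 1.85% and 2.63% in Gran, and at most 1.18% in Meg and Eryth. The Gran share after thinning is near that background, and no expression is read from it. For Csf3r, 67.4% and 60.7% of Gran, 55.0% and 43.0% of MP, 50% and 43.8% of IG2 and 43.0% and 35.4% of monocytic cells had a UMI. Thinned Csf3r shares were 21.6% and 19.6% in Gran, 10.4% and 11% in MP, 12% and 13.4% in IG2 and 11.2% and 9.38% in monocytic cells, against 0% to 2.44% in Meg and Eryth.

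Single cells of MP, and of Mono, often held both transcripts at the deposited depth. Csf1r and Csf3r UMIs were found together in 30.1% (95% exact interval 25.0% to 35.6%) of female and 19.2% (16.3% to 22.4%) of male MP cells. If the 2 transcripts were found independently within the cluster, the product of their shares would give 28.1% and 19.0%. In IG2, 15.7% and 10.3% of cells held both, against products of 16.9% and 9.98%. Mono had 33.3% and 22.9%, against 30.5% and 23.0%, and Gran-1 9.25% and 6.29%, against 8.90% and 6.48%. Multi-Lin had 5.98% and 3.47%, against 4.90% and 2.64%. The product takes no account of depth, and since deeper cells show more of every gene it does not test whether the transcripts avoid each other. Doublets were not removed here. After thinning, 3 of 309 and 7 of 680 MP cells held both (0.97% and 1.03%), against products of 1.11% and 1.33%. In IG2 0 of 166 and 2 of 329 thinned cells held both (0% and 0.61%), against products of 0.80% and 0.93%. These counts are too few to read a direction from.

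**Figure D4:**
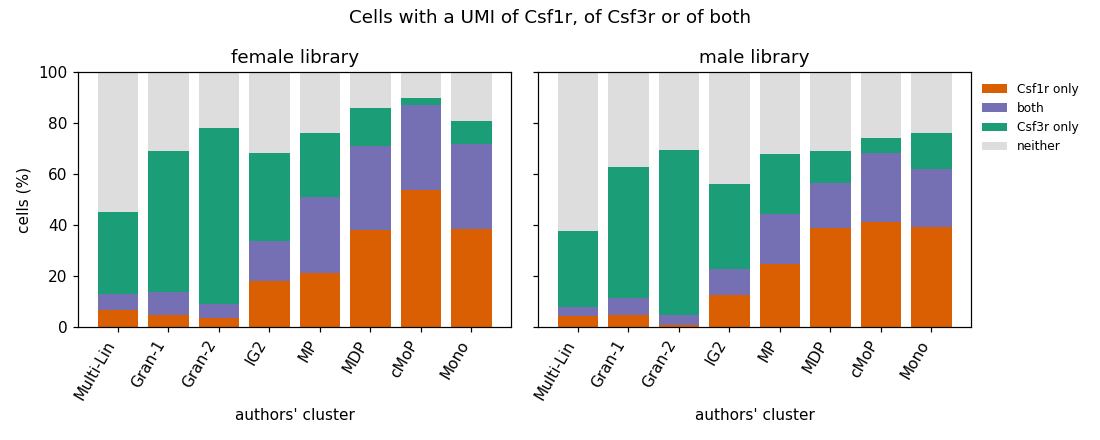
Share of cells (y axis, %) with UMIs of Csf1r only, both genes, Csf3r only or neither, by cluster (x axis) in the female and male library, at the deposited depth. Both transcripts were found in 30.1% and 19.2% of MP cells, against 8.09% and 5.61% in Gran-1 and Gran-2 together. The share in Mono was above that in MP in each library.

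Cells of MP that held only 1 of the receptors differed in some of the genes set side by side and overlapped in others. After thinning, 30 female and 75 male MP cells held Csf1r alone, and 29 and 68 held Csf3r alone. Irf8, a factor of monocyte and dendritic development, had 380 and 395 CPM in cells with Csf1r alone, against 379 and 353 CPM in cells with Csf3r alone. Elane, neutrophil elastase, had 8560 and 8035 CPM in cells with Csf1r alone, against 8014 and 8571 CPM in cells with Csf3r alone. The groups overlapped in Elane and all but touched in Irf8. Cebpe was further apart, with 60 and 53.3 CPM in cells with Csf1r alone, against 27.6 and 29.4 CPM in cells with Csf3r alone. These Cebpe values rest on few UMIs, and MP cells with neither receptor (247 and 530 cells) had 70.4 and 57.4 CPM. Cd34, a marker of early progenitors, had 100 and 98.7 CPM in cells with Csf1r alone, against 152 and 138 CPM in cells with Csf3r alone. MP cells with neither had 130 and 117 CPM of Cd34. In Multi-Lin, Irf8 had 165 and 185 CPM in cells with Csf1r alone (23 and 27 cells), against 78.7 and 68.4 CPM in cells with Csf3r alone (94 and 152 cells). Ms4a6c, a monocyte marker, had 183 and 141 CPM in cells with Csf1r alone, against 70.2 and 51.3 CPM in cells with Csf3r alone. The granule genes were higher there as well: Elane had 2304 and 2059 CPM in cells with Csf1r alone, against 1649 and 1980 CPM in cells with Csf3r alone. Mpo, myeloperoxidase, had 5374 and 5726 CPM in cells with Csf1r alone, against 4013 and 4491 CPM in cells with Csf3r alone. Gata2, a factor of early and mast cell lineages, had 52.2 and 22.2 CPM in cells with Csf1r alone, 91.5 and 84.2 CPM in those with Csf3r alone, and 158 and 157 CPM in those with neither. The Gata2 values in cells with Csf1r alone also rest on few UMIs. All of these are descriptions of cells within 2 libraries and were not tested.

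Csf2ra shifted against the beta chain it signals through. The log2 ratio of Csf2ra to Csf2rb UMIs was 2.18 ± 0.12 in Gran, 1.64 ± 0.05 in Myelo and 1.31 ± 0.17 in monocytic cells, against -0.0074 ± 0.20 in early cells (SD, n = 2). Among granulocytic and monocytic clusters it was highest in Gran-2 (2.55 ± 0.12), and stood at 0.88 ± 0.08 in MP and 0.79 ± 0.04 in IG2. Between the alpha chains, the log2 ratio of Il3ra to Csf2ra UMIs was -2.14 ± 0.08 in Myelo, -1.40 ± 0.29 in Gran and -0.44 ± 0.36 in monocytic cells, against 0.83 ± 0.18 in early cells. Libraries of early and Gran cells did not overlap in either ratio.

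A small group of cells held 12.1% of the female and 16.5% of the male Il3ra UMIs of Multi-Lin. In Multi-Lin, 50 of 686 female and 106 of 1066 male cells had at least 5000 CPM of 8 basophil, mast and eosinophil markers, a limit set with earlier results of these data known, and are called basophil-like here. The list summed to 2419 and 3172 CPM in Multi-Lin, and to at most 848 CPM in any other cluster. Il3ra had 129 and 112 CPM in the basophil-like cells, against 53.1 and 45.6 CPM in the other Multi-Lin cells, and Csf2rb 71.4 and 53.1 CPM, against 31.2 and 26.4 CPM. Csf2rb2 had 12.2 and 6.96 CPM in the basophil-like cells (8 UMIs in each library), against 1.99 and 2.30 CPM in the other cells. Csf3r showed the reverse, with 4.56 and 2.61 CPM (3 UMIs in each library), against 31.7 and 33.2 CPM. Without these cells the falls in Gran over early were -0.56 for Il3ra, -0.55 for Csf2rb and -2.33 for Csf2rb2, all still past the threshold. Il3ra in monocytic over early then passed (0.24, adjusted p = 0.00276).

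**Figure D5:**
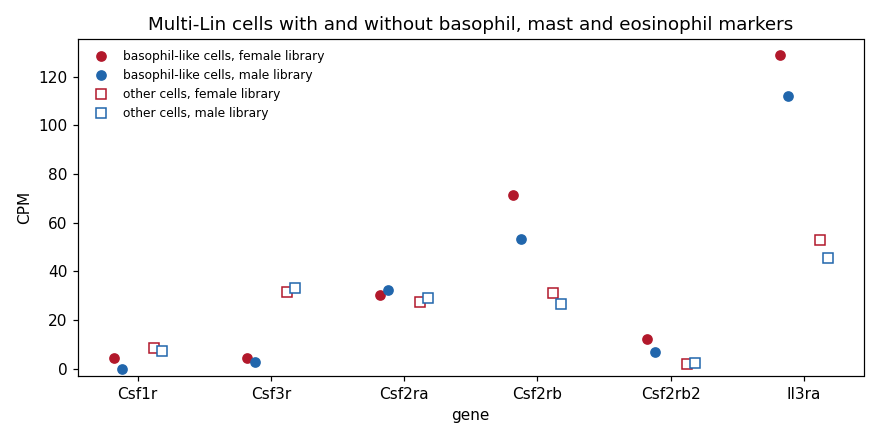
CPM (y axis) of each receptor gene (x axis) in Multi-Lin cells with at least 5000 CPM of basophil, mast and eosinophil markers (filled circles) and in the other Multi-Lin cells (open squares), by library. Il3ra is at 129 and 112 CPM in the basophil-like cells, against 53.1 and 45.6 CPM in the others, and Csf3r is at 4.56 and 2.61 CPM, against 31.7 and 33.2 CPM.

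Genes with the most similar pattern were sought over the 14 clusters with at least 30 cells in each library, among 6452 genes with a mean of at least 10 CPM. Likeness is Pearson's r of log2(CPM + 1), averaged over the libraries. The clusters share libraries and depth, so r is a description. Csf1r was most like Irf8 (r = 0.98), Ifi209 (0.97) and Hpse (0.97). Csf3r was most like Tm6sf1 (0.97), Limd2 (0.94) and Fis1 (0.93), and Csf2ra most like Sat1 (0.96), Sema4a (0.94) and Atp6v0e (0.94). Csf2rb was most like Cd53 (0.97), Fam107b (0.94) and Lcp1 (0.93). Csrp2 (0.93), Tmem173 (0.92) and Emb (0.92) were nearest to Il3ra. For the scarce Csf2rb2 no gene came above 0.86, which was Neat1. Among the members, Csf3r and Csf2rb had the highest r in each library (0.83 female, 0.78 male), and Csf2rb and Csf2rb2 had 0.83 and 0.60. Both Csf3r and Csf2rb were lowest of these clusters in Meg and Eryth, on 6 UMIs or fewer a library. In Gran over early cells the pair moved apart, with log2 fold changes of 0.90 for Csf3r and -0.64 for Csf2rb. Their r without Meg and Eryth was not computed. Csf1r and Il3ra had 0.77 in both libraries, while Csf1r and Csf3r had 0.31 (female library) and 0.057 (male library).

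Genes around the receptors were described with lists chosen with earlier results known. Of 6 ligand genes only Csf1, macrophage colony-stimulating factor itself, was high enough to test. It fell in Gran over early, with 0.746 and 0.843 TMM-scaled CPM in Gran, against 7.20 and 5.48 in early cells (log2 fold change -2.95, adjusted p = 3.16e-09). Csf1 was likewise lower in monocytic over early (-2.75), and higher in Myelo over Gran (1.43). The part of the basophil-like cells of Multi-Lin in its early level was not tested. Csf2, Csf3, Il3 and Il34 were at 0 CPM in Multi-Lin, Mono and Gran-1. Among other cytokine receptors, 4 rose, 11 fell and 3 did not pass of 18 tested in Gran over early (median -0.51, all genes -0.022), and 8 rose, 7 fell and 3 did not pass of 18 in monocytic over early (median 0.24, all genes -0.016). Over all genes 66.7% passed in Gran over early and 59.4% in monocytic over early. Flt3, the receptor of the FLT3 ligand on early progenitors, was 19.9-fold lower in Gran. Ifngr1, an interferon-gamma receptor chain, was 3.20-fold higher in Gran over early, and was lower in Myelo over Gran (-1.18). Il6ra and Il6st, the chains of the interleukin-6 receptor, were 3.32-fold and 8.29-fold higher in monocytic over early cells.

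Of the downstream lists, the STAT targets were mostly lower than in early cells and the adaptors were not. All 11 STAT5 and STAT3 target genes on the list fell in Gran over early (median -1.47, all genes -0.022), and 9 fell, 1 rose and 1 did not pass in monocytic over early (median -0.90, all genes -0.016), where 34.2% and 30.5% of all genes tested were lower. Of 17 signalling adaptors and kinases, 6 rose, 6 fell and 5 did not pass in Gran over early (median -0.00032) and likewise in monocytic over early (median -0.048). Pim1, a kinase induced by cytokines, had a log2 fold change of -2.28 in Gran over early and -1.37 in monocytic over early, and the survival gene Bcl2 one of -2.16 in Gran over early. Among 9 JAK and STAT genes, 1 rose and 6 fell in Gran over early (median -0.51), with Stat5a at -0.84 and Stat5b at -0.66. In Myelo over Gran, 14 of these 17 adaptors and kinases rose and none fell (median 0.79, all genes -0.0082; 33.5% of all genes were higher), among them the Src-family kinase Fgr (4.80), which was 27.8-fold higher. Of 10 negative regulators tested there, 8 rose and 1 fell (median 0.84), with Cbl, a ubiquitin ligase, at 1.00 and the phosphatase Ptpn6 at 1.04. The scaling shift of 0.50 given above for Myelo over Gran applies to these medians too.

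Of 12 transcription factors listed for the receptor promoters, 6 rose and 6 fell in Gran over early, and 5 rose, 5 fell and 2 did not pass in monocytic over early. Of all genes, 32.5% were higher and 34.2% lower in Gran over early, and 28.9% and 30.5% in monocytic over early. Irf8 had 596 and 657 TMM-scaled CPM in monocytic cells, against 58.2 and 56.0 in early cells (log2 fold change 3.46), and was 13.4-fold lower in Gran than in monocytic cells. Klf4, a monocyte factor, was 27.0-fold lower in Gran than in monocytic cells. Gata2 was 21.1-fold lower in Gran and 19.8-fold lower in monocytic cells than in early cells. In Myelo over Gran, Cebpe, a factor of late granulocyte maturation, was 3.65-fold higher and Cebpa 2.29-fold lower.

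Antibody counts in the same cells differed in either direction between cells with and without a receptor UMI. With cells thinned to 5000 UMIs, the median Ly-6C count in MP was 6557 and 4254 in cells with a Csf1r UMI, against 5482 and 3366 in those without. For Csf3r in MP it was 6523 and 4281 in cells with a UMI, against 5511 and 3365 in those without. Gran-1 cells with a Csf3r UMI had median CD11b counts of 355.5 and 238, against 299 and 201 in those without. With a Csf1r UMI, Gran-1 cells had median CD11b counts of 215 and 200 (20 and 45 cells), against 315 and 207 in those without. These medians were not tested. Across the 17 clusters, the female library was higher than the male in 13 for Il3ra, 14 for Csf2rb and 10 for Csf3r. For Csf1r it was higher in 10, for Csf2rb2 in 9 and for Csf2ra in 6. The clusters come from the same 2 libraries and are not replicates, and some held few UMIs. Such counts were not made over all genes.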

How the data were processed

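The authors deposited whole-number UMI counts per gene and cell for both mRNA libraries and counts of antibody tags per cell from 1 pooled antibody library, with a cluster name per cell. Cell Ranger 2.1.0 and mm10 are named per the submitters' processing notes. The sources used here do not say how clusters were made or doublets treated, and no doublet caller was run. Of the gene IDs, 353 had no symbol (0.0230% of UMIs).

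UMI counts were summed per library and cluster. Class comparisons used 4 sums with edgeR 4.0.16 (R 4.3.3), a quasi-likelihood test with TMM scaling, filterByExpr and the library as a term; cluster comparisons used 1 fit over all cluster sums. The library term pairs clusters cut from the same library. P-values were adjusted by Benjamini-Hochberg across every gene in the fit and called under 0.05. They rest on how far 2 libraries disagree about the differences between clusters. In the cluster comparisons that spread was estimated over all clusters. Since the clusters came from this RNA, the p-values describe the clusters. Intervals (exact Poisson or Clopper-Pearson, 95%) and floors (3 counts) cover counting error only. Thinning drew 5000 UMIs per cell, where median depths by cluster and library ran from 5057 to 27908 UMIs. It therefore removed most counts of the deep clusters and lowered the power of the tests. The part of this in calls lost after thinning was not tested. Symbols were named by a rule: the members, the 3 most similar genes of each, and for each list the largest changes past the threshold. Alternatives were DESeq2 1.42.0, no filter, no library term, thinning, fewer cells, other cluster sets and 1 library at a time; scaling by total UMIs was added after seeing the data. The members and lists were chosen with earlier results of these data known.

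On simulated data for Gran over monocytic (11493 genes), the test recovered 31.3% of genes changed by 0.5 (log2), 100% at 1 and 100% at 2, with 7 false calls. The simulation changed only 67, 67 and 66 genes at these sizes and gave all genes 1 fixed dispersion. In the data 51.0% of genes passed, so these rates do not carry over to the comparison itself.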

Additional observations from a re-analysis of the deposited data

Results flagged for a closer look

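Among member values with over 3 UMIs in each library and group, 10 moved in opposite directions in the female and male libraries, and these differences were not tested. Values on fewer UMIs (Csf2rb2 in 4 comparisons and Csf1r in Myelo-4 over Gran-2) also differed in sign and are not listed. Log2 changes are given for the female library and then the male library. Csf2rb in monocytic over early cells was -0.046 and 0.18. In Myelo over Gran cells, Csf1r was 0.10 and -0.13, and Il3ra was -0.066 and 0.021. Csf3r was -0.20 and 0.48 in cMoP over MDP, and 0.15 and -0.14 in Mono over cMoP. In Myelo-4 over Gran-2, Csf3r was 0.47 and -0.30, and Csf2ra was 0.31 and -0.13. Csf3r was 0.088 and -0.17 in MP over Multi-Lin, and -0.11 and 0.049 in IG2 over MP. Il3ra in IG2 over MP was 0.18 and -0.11. None of these passed the pooled test with TMM scaling.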

How the results depend on the processing

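Of 1210 alternative values for the members, 1108 stayed the same, 42 lost the threshold, 21 gained it, 22 reversed and 17 otherwise moved. The causes were not tested. Same means the same direction and side of the threshold. For 1 library at a time it means within 1 SD of the fitted value, which with 2 libraries is nearly fixed in advance. There a sign change counted as reversed only for members that passed, so the opposite signs flagged above are not counted. Counts of called genes moved (by over 1.5 times) as follows. DESeq2 called 4641 against 8039 in Gran over early, 3259 against 6895 in monocytic over early, 2618 against 5920 in Gran over monocytic and 4839 against 7573 in Myelo over Gran. The fit over all clusters called 4894 and 3990 in Gran and monocytic over early. With no replicate block (no library term, so no pairing) the counts were 3660 in Gran over monocytic, 1422 against 2247 in MDP over Multi-Lin, 252 against 538 in Mono over cMoP, 1571 against 3229 in Gran-2 over Gran-1, 1773 against 3162 in IG2 over Multi-Lin, 3005 against 4564 in MP over Gran, 1098 against 2100 in MP over monocytic and 371 against 1047 in IG2 over MP. Thinning gave 3003 in Gran over monocytic, 922 in MDP over Multi-Lin, 440 against 1280 in cMoP over MDP, 222 in Mono over cMoP, 3994 against 6372 in Gran-1 over Multi-Lin, 1351 in Gran-2 over Gran-1, 1499 in IG2 over Multi-Lin, 1962 against 4411 in IG2 over Gran, 1032 against 2729 in IG2 over monocytic, 3119 against 5405 in MP over Multi-Lin, 2234 in MP over Gran, 724 in MP over monocytic and 293 in IG2 over MP. Fits to only the clusters compared called 911 in Mono over cMoP and 1710 in IG2 over MP.

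The log2 Csf1r to Csf3r ratio was 1.17 in monocytic cells without the 5% of cells highest in UMIs, and 1.35 in monocytic cells, 0.17 in MP and -3.43 in Gran after thinning. Thinning took the mean share of cells with Csf1r to 23.7% in monocytic, 11.4% in MP, 6.81% in IG2 and 2.24% in Gran cells, and with Csf3r to 10.3%, 10.7%, 12.7% and 20.6%. With 1 library left out the ratio ranged over 1.19 to 1.20 in monocytic cells, 0.07 to 0.14 in MP, -1.19 to -0.83 in IG2, -2.25 to -1.87 in Multi-Lin and -3.33 to -3.16 in Gran. Csf1r shares then ranged over 61.8% to 72.7% in monocytic, 44.1% to 51.1% in MP, 22.8% to 33.7% in IG2 and 9.40% to 12.4% in Gran cells, and Csf3r shares over 35.4% to 43.0%, 43.0% to 55.0%, 43.8% to 50% and 60.7% to 67.4%.

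Reversals in the fit over all clusters were Csf1r (3.22) and Csf2rb (0.67) in Gran over early and Csf2rb2 (2.17) in monocytic over early. With total UMIs they were Csf2rb (-0.13) and Il3ra (-0.091) in monocytic over early, Csf3r in Myelo over Gran (-0.074), Csf3r (-0.27) and Csf2ra (-0.28) in Myelo-4 over Gran-2, and Csf3r (0.049) and Csf2rb2 (0.021) in IG2 over MP. Thinning reversed Csf2ra in MDP over Multi-Lin (-0.031) and Myelo-4 over Gran-2 (-0.32), and Csf3r (0.23) and Csf2rb (0.027) in IG2 over MP. Without the highest cells Csf3r was 0.054 in Mono over cMoP, -0.0014 in Myelo-4 over Gran-2 and 0.0061 in IG2 over MP, and Csf2rb2 0.035 in IG2 over MP. Without a filter Csf3r was 0.0069 in Mono over cMoP and Il3ra -0.0051 in IG2 over MP, DESeq2 gave Csf3r 0.012 in IG2 over MP, and without basophil-like cells Csf2rb2 was 0.12 in monocytic over early. Adding Csf2rb2 counts to Csf2rb gave a call in MP over monocytic (-0.31, adjusted p = 0.0257).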
